A study of Sus scrofa with 8 samples.

Results

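EMB encodes embigin, a cell-surface glycoprotein of the basigin family, and its messenger RNA was examined here together with the 2 other members of that family and the lactate-handling genes these proteins serve. The set comprised 8 genes, namely the chaperones EMB, BSG and NPTN, the lactate carriers SLC16A1, SLC16A3 and SLC16A7, and the lactate dehydrogenase subunits LDHA and LDHB. They were taken by gene symbol and matched 9 of 25880 pig genes in the count table, because 2 rows carry the name LDHB. EMB was selected for its difference between the genotypes in an earlier reading of these counts, so its genotype values are given as a description with no test, and the other genes were taken by family or pathway. The tissue was olfactory epithelium of newborn pigs, dissected and snap-frozen, in 4 CFTR-knockout piglets (numbered 6, 18, 20 and 21) and 4 wild-type piglets (numbered 5, 9, 12 and 23). CFTR is the anion channel that is defective in cystic fibrosis, and the study asked what underlies the loss of smell in that disease. How the CFTR allele was made, the litters and the sexes are not given in the labels.

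Lactate crosses membranes together with a proton through monocarboxylate transporters of the SLC16 family. These carriers reach the cell surface only when bound to a single-pass immunoglobulin-like partner: basigin is the usual partner of SLC16A1 and SLC16A3, embigin was described in rat as a partner of SLC16A7, and neuroplastin (NPTN) is a relative that is abundant in neurons. Lactate dehydrogenase is a tetramer of LDHA and LDHB subunits, of which LDHA-rich forms favour making lactate from pyruvate and LDHB-rich forms favour the reverse. In nervous tissue lactate passes between supporting cells and neurons as a fuel.

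Libraries held 39915150 to 43253395 counts in knockout piglets and 30836904 to 42281883 in wild-type piglets. CFTR itself was counted with 277, 188, 326 and 354 reads in knockout piglets 6, 18, 20 and 21, and with 2352, 1083, 1407 and 1573 reads in wild-type piglets 5, 9, 12 and 23, so the genotype labels matched in every library. Markers of mature olfactory neurons were detected in all libraries, with 14 of 14 listed genes matched and none at 0 throughout, and summed to 9190 to 11065 CPM (counts scaled to a common library size) in knockout and 5985 to 10061 CPM in wild-type piglets. Knockout piglet 18 stood apart in bone and cartilage genes, which summed there to 42467 CPM, while the other knockout piglets ranged over 1475 to 2183 CPM and the wild-type piglets over 1760 to 4982 CPM. The Y-linked genes EIF1AY and KDM5D had reads in 2 libraries, wild-type piglets 9 and 12.

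Set per length, as RPKM (CPM per kilobase of exon), the members spanned a wide range of levels. LDHB stood highest, at 247 ± 20.9 RPKM (SD, n = 8), followed by BSG at 99.7 ± 7.14, LDHA at 64.4 ± 22.1, NPTN at 36.0 ± 3.54, EMB at 21.7 ± 5.21, SLC16A3 at 7.76 ± 2.07, SLC16A1 at 2.71 ± 0.805 and SLC16A7 at 1.80 ± 0.526 RPKM. The second row named LDHB lay between NPTN and EMB, at 23.7 ± 12.2 RPKM. LDHB was thus among the most abundant transcripts of the tissue, at rank 118 of 17175 tested genes by RPKM, whereas SLC16A7 was at rank 12603. LDHB over BSG, EMB over SLC16A3 and SLC16A3 over SLC16A1 held in 8 of 8 libraries with ranges that did not overlap. The last of these rests on an SLC16A1 exon length of 7420 bases, of which 4027 lie inside the RefSeq gene. That order depends on the exon lengths used and was not examined with the shorter one. By CPM, SLC16A1 exceeded SLC16A3 in knockout piglet 18 and wild-type piglets 5 and 12. BSG exceeded LDHA and NPTN exceeded the second LDHB row in 8 of 8 libraries too, but with overlapping ranges. The remaining neighbours overlapped and changed places between libraries: LDHA exceeded NPTN in 7 of 8, SLC16A1 exceeded SLC16A7 in 7 of 8, and the second LDHB row exceeded EMB in 5 of 8. The 3 chaperones together were at 161 ± 7.44 RPKM in knockout and 153 ± 2.71 RPKM in wild-type piglets (SD, n = 4 each), which was 13.2 ± 2.13 and 13.7 ± 4.46 times the summed level of the 3 carriers. Other carriers of the SLC16 family are not in that sum, among them SLC16A11, which averaged 75.3 RPKM over the 8 libraries.

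**Figure D1:**
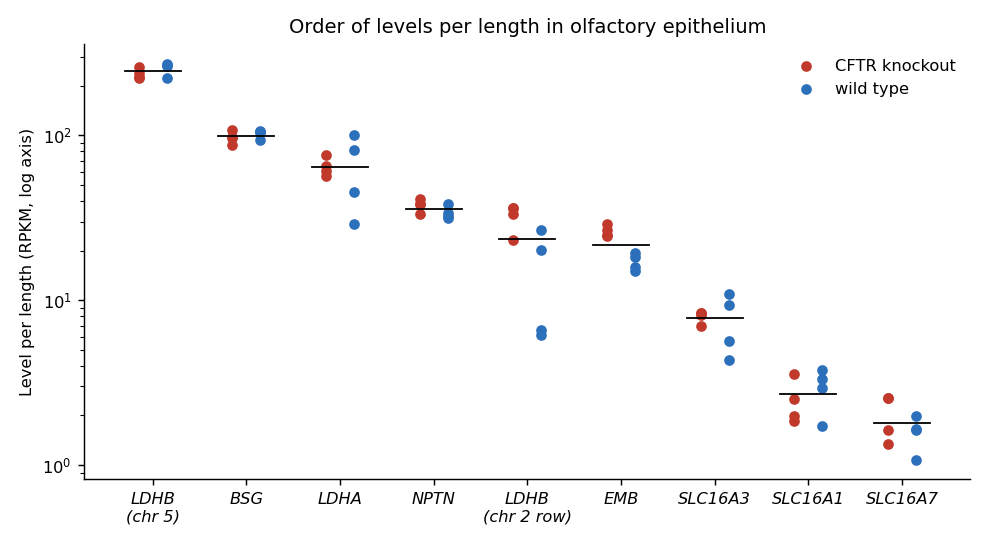
Level per length (RPKM, log axis) of the 9 rows, ordered by their mean over the 8 libraries (black line); each point is a piglet, CFTR knockout in red on the left of each pair and wild type in blue. LDHB on chromosome 5 averages 247 RPKM and SLC16A7 1.80 RPKM, and the wild-type points of LDHA are spread more widely than the knockout points.

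EMB (ENSSSCG00000029484, chromosome 16, 30126861 to 30170480 on the minus strand, in the coordinates of the deposited table, whose build is not stated) had 1797, 1595, 1812 and 2023 reads in knockout piglets 6, 18, 20 and 21, against 1262, 836, 1327 and 1076 reads in wild-type piglets 5, 9, 12 and 23. Scaled for library size these were 40.9, 44.5, 41.3 and 47.8 CPM in the knockout piglets and 30.3, 26.5, 32.1 and 25.0 CPM in the wild-type piglets. Every knockout value lay above every wild-type value, with a gap between 40.9 CPM in knockout piglet 6 and 32.1 CPM in wild-type piglet 12. The means were 43.6 ± 3.22 CPM in knockout and 28.5 ± 3.29 CPM in wild-type piglets (SD, n = 4 each), that is 1.53-fold higher, or 0.62 on the log2 scale. Groups that do not overlap with the knockout higher were found in 2.45% of all tested genes, and EMB was chosen from among these. The log2 difference was 0.60 without knockout piglet 18, 0.64 without wild-type piglet 5 and 0.56, the lowest, without wild-type piglet 23. It was 0.65 when wild-type piglets 9 and 12, the libraries with Y-linked reads, were left out. These fits reuse the counts from which EMB was chosen, so they are a description and no test. In tissue RNA, more cells of a type that makes EMB and more EMB RNA per cell cannot be told apart.

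EMB made up a minor part of the chaperone RNA in both genotypes. Of the summed RPKM of EMB, BSG and NPTN, its share was 15.3%, 16.0%, 16.5% and 17.5% in knockout piglets 6, 18, 20 and 21, and 11.7%, 10.3%, 12.8% and 9.99% in wild-type piglets 5, 9, 12 and 23. BSG held 60.2 ± 2.71% in knockout and 66.6 ± 3.33% in wild-type piglets, and NPTN 23.5 ± 2.62% and 22.2 ± 2.12%. These shares use EMB and are a description. They also depend on the exon length of each row, which is 10208 bases for NPTN and 1761 bases for BSG. The EMB row ends 5789 bases short of the 3' end of the EMB gene as RefSeq has it on Sscrofa11.1, so reads from there would not be in these counts.

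**Figure D2:**
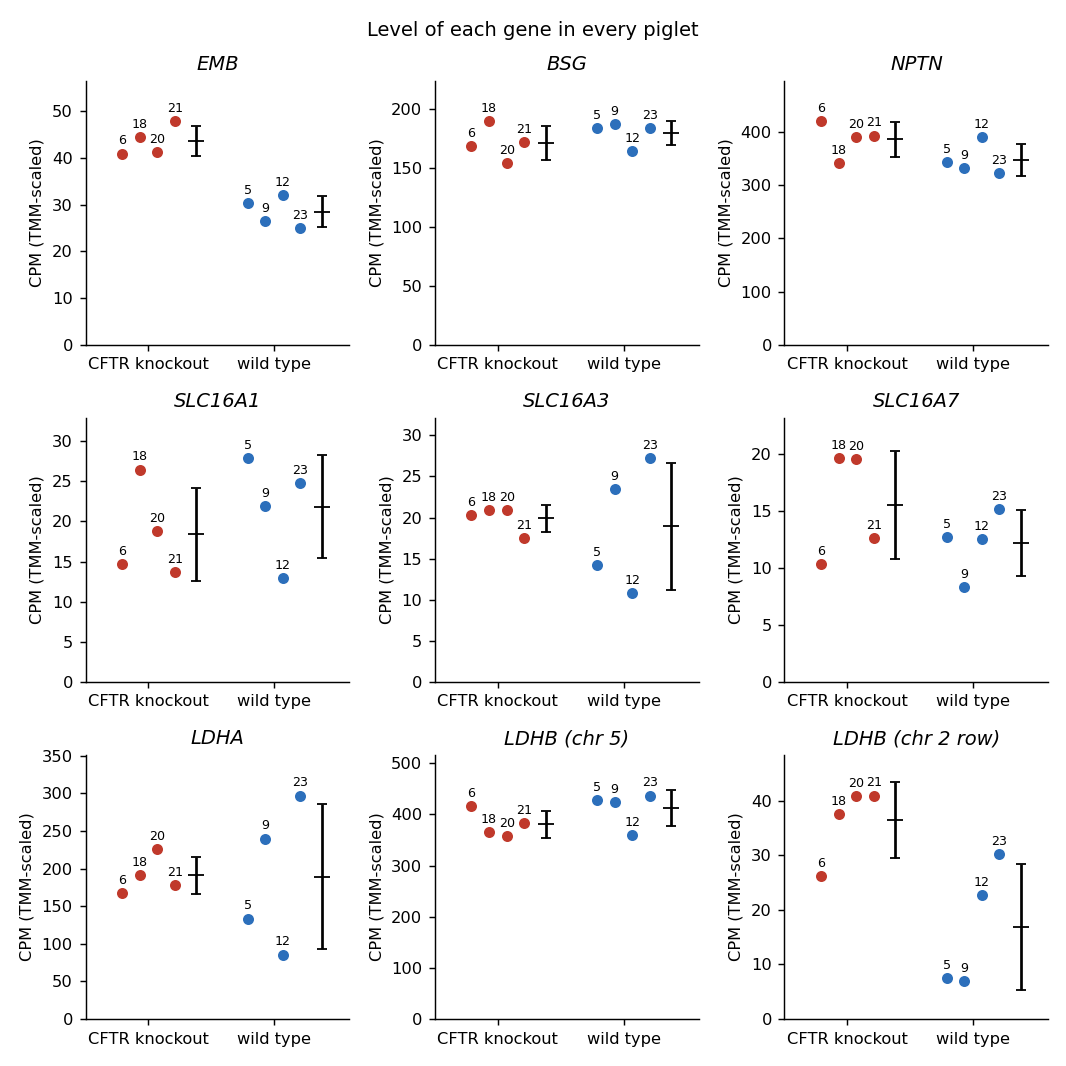
CPM of each row in every piglet, labelled by piglet number, with CFTR knockout on the left and wild type on the right of each panel and the group mean ± SD (n = 4) in black. The EMB points of the knockout piglets (40.9 to 47.8 CPM) all lie above those of the wild-type piglets (25.0 to 32.1 CPM), while the groups overlap in the other 8 panels.

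Basigin, the most abundant of the family per length though below NPTN by CPM, was nearly constant between animals. BSG (ENSSSCG00000027907, chromosome 2, 77735520 to 77743415 on the minus strand, named by position) was 169, 190, 154 and 172 CPM in knockout piglets 6, 18, 20 and 21, and 184, 188, 165 and 184 CPM in wild-type piglets 5, 9, 12 and 23. The groups overlapped. The log2 fold change was -0.07 ± 0.08 (SE, as for those below), with a 95% confidence interval from -0.26 to 0.12 (edgeR quasi-likelihood test, Benjamini-Hochberg adjusted p = 0.735). The EMB log2 fold change of 0.62 lay outside that interval and those of NPTN, SLC16A1 and the chromosome 5 row of LDHB. It lay inside those of SLC16A3, SLC16A7, LDHA and the second LDHB row. EMB was chosen for its difference in these counts, so its size sets no bound for the other genes.

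Neuroplastin also gave overlapping groups. NPTN (ENSSSCG00000001918, chromosome 7, 59713204 to 59840591 on the plus strand) was 420, 341, 391 and 394 CPM in knockout piglets and 344, 333, 391 and 322 CPM in wild-type piglets, in the same order of animals. Knockout piglet 18 lay below wild-type piglets 5 and 12, and the highest value was in knockout piglet 6. The log2 fold change was 0.15 ± 0.10, with an interval from -0.07 to 0.37 (edgeR adjusted p = 0.537). The NPTN row extends over CD276 and REC114, which lie on the opposite strand, and the sources used here do not say whether counting used strand. Their own log2 fold changes were 0.23 ± 0.12 for CD276 and -0.35 ± 0.30 for REC114 (edgeR adjusted p = 0.473 and 0.639). The log2 ratio of BSG to NPTN, per length, was 1.36 ± 0.23 in knockout and 1.59 ± 0.20 in wild-type piglets (SD, n = 4 each), differing by -0.23 (two-sided exact permutation test, p = 0.2, and 0.6 adjusted over the 3 quantities tested in this way).

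SLC16A3, also called MCT4, is the carrier of cells that export lactate, and it was the most abundant of the 3 carriers by RPKM. SLC16A3 (ENSSSCG00000024018, chromosome 12, 796885 to 803555 on the minus strand) was 20.3, 20.9, 20.9 and 17.5 CPM in knockout piglets 6, 18, 20 and 21, and 14.2, 23.5, 10.8 and 27.2 CPM in wild-type piglets 5, 9, 12 and 23. The 4 knockout values lay inside the wider wild-type range, and the log2 fold change was 0.07 ± 0.26 (interval -0.52 to 0.67, edgeR adjusted p = 0.922). Its sign was negative in 6 of 18 fits, which are the edgeR fit and 17 alternatives. Its share of the summed RPKM of the 3 carriers was 64.4 ± 5.70% in knockout and 61.1 ± 8.90% in wild-type piglets. These shares are uncertain, as they depend on the exon lengths of the SLC16A1 and SLC16A7 rows, which lie partly outside the RefSeq genes. The SLC16A3 row overlaps CSNK1D, on the opposite strand, by 501 bases, and whether counting used strand is not known here. CSNK1D was at 140 ± 6.48 CPM in knockout and 139 ± 7.64 CPM in wild-type piglets (SD).

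SLC16A1, or MCT1, is the widely expressed carrier for both uptake and export. SLC16A1 (ENSSSCG00000006771, chromosome 4, 107510915 to 107638389 on the plus strand, named by position) was 14.6, 26.5, 18.8 and 13.7 CPM in knockout piglets and 27.9, 21.9, 12.9 and 24.8 CPM in wild-type piglets, in the same order of animals. The highest value was in wild-type piglet 5, the lowest in wild-type piglet 12, and the groups overlapped (log2 fold change -0.25 ± 0.27, interval -0.86 to 0.36, edgeR adjusted p = 0.714). The row is uncertain as a measure of SLC16A1 alone, and 420 bases of its span overlap an unnamed gene on the opposite strand. It runs past the end of the RefSeq gene with 5 further exon blocks, 3 of which have the lengths of blocks inside the gene (261, 144 and 867 bases), and reads shared between near-identical copies cannot be placed with certainty.

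SLC16A7, or MCT2, the high-affinity carrier for lactate uptake, was the least abundant by mean CPM and by mean RPKM. Its exon length is 7683 bases, of which 5073 lie inside the RefSeq gene, so its RPKM depends on the length used. SLC16A7 (ENSSSCG00000000456, chromosome 5, 24712656 to 24877213 on the plus strand) was 10.4, 19.6, 19.5 and 12.6 CPM in knockout piglets and 12.7, 8.29, 12.5 and 15.2 CPM in wild-type piglets, in the same order of animals. Knockout piglets 18 and 20 were above all wild-type values and the other 2 were within their range (log2 fold change 0.35 ± 0.25, interval -0.22 to 0.92, edgeR adjusted p = 0.581). Without wild-type piglets 9 and 12 the log2 fold change was 0.15. The log2 of the summed RPKM of the 3 carriers was 3.63 ± 0.21 in knockout and 3.54 ± 0.46 in wild-type piglets, a difference of 0.08 with an exact permutation p of 0.8 (adjusted 0.8), which became -0.12 without wild-type piglet 12.

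LDHB was both the most abundant member and among the steadiest. The chromosome 5 row (ENSSSCG00000000576, 51810967 to 51831490 on the plus strand, 8 exon blocks, named by position) was 416, 365, 357 and 384 CPM in knockout piglets 6, 18, 20 and 21, and 428, 425, 359 and 437 CPM in wild-type piglets 5, 9, 12 and 23. Wild-type piglet 12 lay with the lower knockout values, so the groups overlapped (log2 fold change -0.12 ± 0.09, interval -0.33 to 0.09, edgeR adjusted p = 0.617).

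LDHA varied more among the wild-type than among the knockout piglets. LDHA (ENSSSCG00000013366, chromosome 2, 40813963 to 40826715 on the minus strand) was 168, 192, 226 and 179 CPM in knockout piglets and 134, 240, 85.7 and 297 CPM in wild-type piglets, in the same order of animals. The means were 191 ± 25.0 CPM in knockout and 189 ± 96.7 CPM in wild-type piglets (SD, n = 4 each), and all knockout values were inside the wild-type range. The log2 fold change was 0.01 ± 0.33 (interval -0.74 to 0.77, edgeR adjusted p = 0.990) and was negative in 8 of the 18 fits. Of the RPKM of LDHA and LDHB together, LDHA was 21.5 ± 3.21% in knockout and 19.1 ± 7.33% in wild-type piglets. The log2 ratio of LDHA to LDHB was -1.88 ± 0.27 in knockout and -2.16 ± 0.71 in wild-type piglets, differing by 0.28 (exact permutation p = 0.486, adjusted 0.729). The smallest p that 4 against 4 animals allow is 0.0286.

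The gene table gives the symbol LDHB to another row (ENSSSCG00000032557, chromosome 2, 12988754 to 12990030 on the minus strand), a gene model of 1277 bases in 2 blocks separated by 153 bases. This row was 26.2, 37.5, 40.8 and 40.9 CPM in knockout piglets 6, 18, 20 and 21, and 7.41, 6.96, 22.7 and 30.2 CPM in wild-type piglets 5, 9, 12 and 23. Wild-type piglets 5 and 9 were far below the other 6 animals, and knockout piglet 6 was below wild-type piglet 23, so the groups overlapped. The log2 fold change was 1.11 ± 0.45 (interval 0.09 to 2.14), with an edgeR p of 0.0366 and an adjusted p of 0.425. That interval is not adjusted over the genes. Of the reads of both LDHB rows, this row held 5.94%, 9.33%, 10.3% and 9.63% in the knockout piglets and 1.70%, 1.61%, 5.93% and 6.46% in the wild-type piglets. Reads that match near-identical copies of a gene cannot be assigned with certainty, so this row is uncertain, and a count read under the symbol LDHB alone would be that of the less abundant row.

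**Figure D3:**
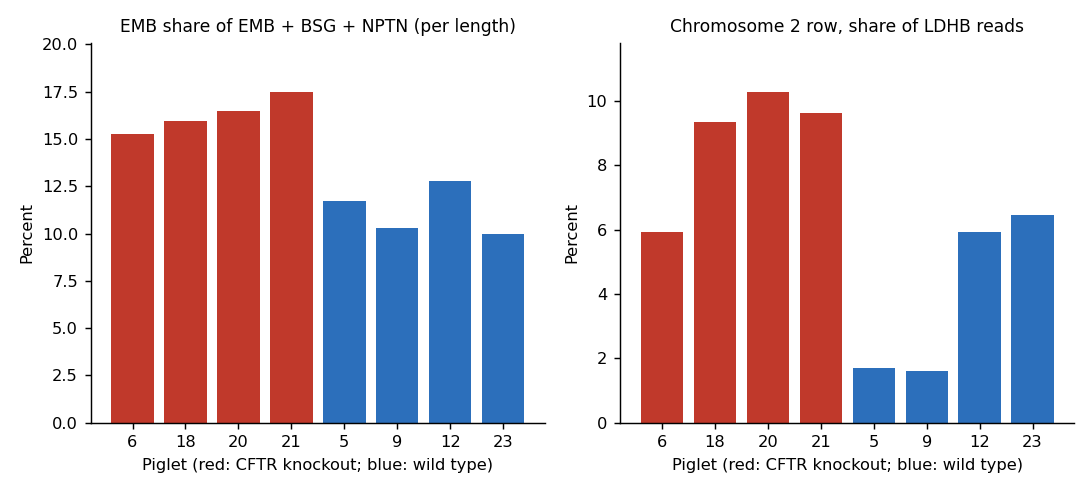
Left, share of EMB in the summed RPKM of EMB, BSG and NPTN in each piglet; right, share of the chromosome 2 row in the reads of both LDHB rows, with CFTR knockout in red and wild type in blue. EMB holds 15.3% to 17.5% in knockout and 9.99% to 12.8% in wild-type piglets, and the chromosome 2 row is lowest in wild-type piglets 5 and 9, at 1.70% and 1.61%.

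Across the whole table edgeR called 1 gene, CFTR, among 17175 (0.00582%). All 9 rows passed the filter on low counts. Of the 8 rows other than EMB, edgeR called 0, as did DESeq2, which called 1.31% of all genes, and limma with sample quality weights, which called 0.0640%. At an unadjusted edgeR p under 0.05 there was 1 of these 8 rows, the chromosome 2 row of LDHB, against 11.2% of all tested genes. That count was 0 without knockout piglet 18, 20 or 21, without wild-type piglet 5 or 9, and with a covariate for reads of EIF1AY and KDM5D, and it was 2 with limma, which added NPTN. None of the 8 rows had groups that did not overlap, against 5.81% of all tested genes (2.45% with the knockout higher and 3.36% with it lower).

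**Figure D4:**
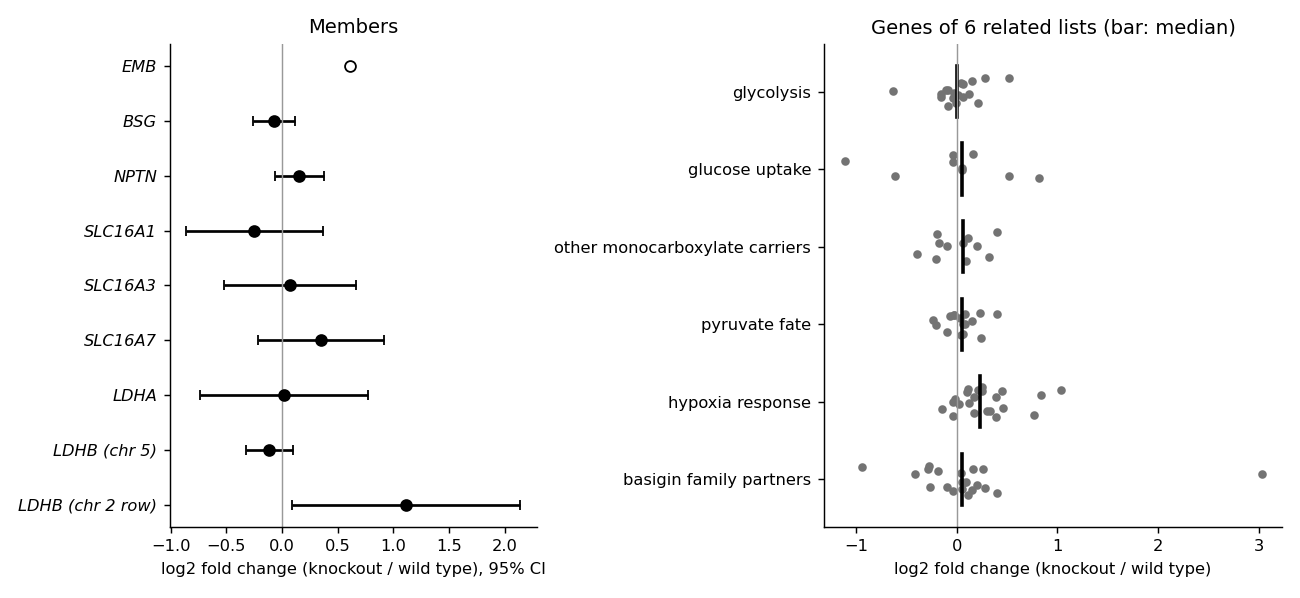
Left, log2 fold change (knockout over wild type) of each row with its 95% confidence interval from edgeR; EMB, chosen for this contrast, is an open circle with no interval. Right, log2 fold changes of the tested genes of 6 related lists (grey points, spread vertically for legibility) with the list median as a bar; the hypoxia list has its median at 0.23 and the others lie between -0.0006 and 0.06.

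Among the 7 genes other than EMB, LDHA and SLC16A3 moved together from animal to animal. Over the 8 libraries their log2 CPM had a Pearson r of 0.97 (exact permutation p = 0.000248, adjusted 0.00521 over 21 pairs) and a Spearman rho of 0.95 (exact p = 0.00114, adjusted 0.0240). Without the 2 libraries farthest from the median of SLC16A3, wild-type piglets 5 and 12, r was 0.89 with an exact p of 0.0194, or 0.331 adjusted over the pairs. Both genes were lowest in wild-type piglet 12 and highest in wild-type piglet 23, and the knockout piglets, with narrower ranges, were not in the same order for both. In a comparison made after these values were seen, SLC16A3 ranked 1 of 11496 named genes averaging 5 CPM or more in the likeness of its deviations from the group means to those of LDHA (r = 0.97, n = 8). No other pair among the 21 had an adjusted p under 0.05. The next were NPTN with SLC16A1 (r = -0.85, rho = -0.62, exact p = 0.0193 and 0.115) and BSG with NPTN (r = -0.80, rho = -0.71, exact p = 0.0228 and 0.0576), each with an adjusted Pearson p of 0.160 and an adjusted Spearman p of 0.449. With the 2 farthest libraries left out, r was -0.85 and -0.92.

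**Figure D5:**
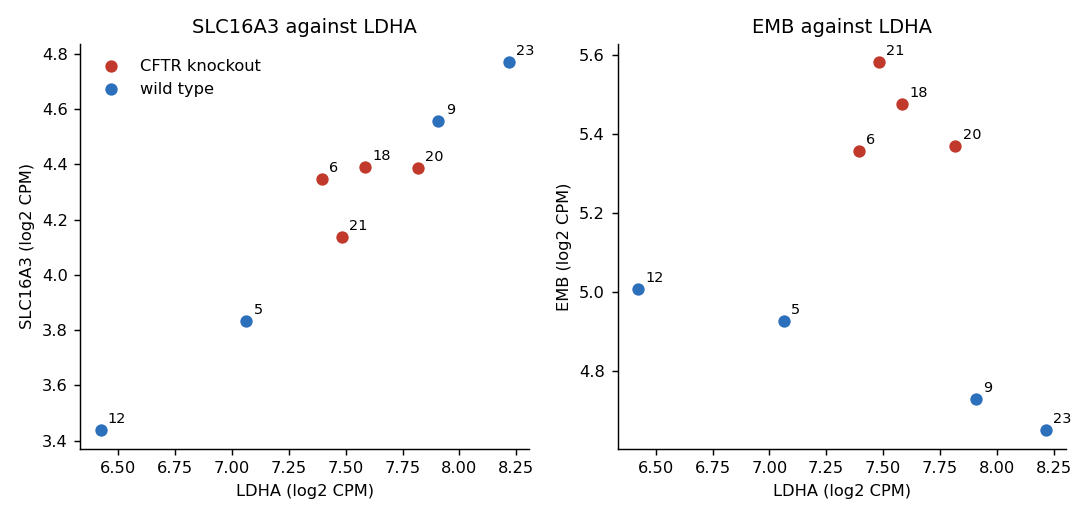
Log2 CPM of SLC16A3 (left) and EMB (right) against log2 CPM of LDHA, with 1 point per piglet labelled by number, CFTR knockout in red and wild type in blue. SLC16A3 follows LDHA over the 8 libraries (r = 0.97), whereas EMB separates into a knockout and a wild-type group and falls in the reverse order of LDHA among the wild-type piglets.

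Among the wild-type piglets EMB ran in the reverse order of LDHA and SLC16A3, while knockout piglet 6 had the lowest EMB and also the lowest LDHA of its group. With each group's mean removed, the log2 CPM of EMB had an r of -0.91 with SLC16A3 and -0.85 with LDHA over the 8 libraries, ranks 11491 and 11470 of 11496 genes in likeness to EMB, and the wild-type piglets, with the wider spread of SLC16A3 and LDHA, weigh most in them. These values were singled out after they were seen and are a description. With the other members, r was -0.56 for LDHB, -0.39 for SLC16A1, -0.15 for BSG, 0.02 for SLC16A7 and 0.39 for NPTN. The 5 genes most like EMB by this measure were DUSP23 (r = 0.96), a phosphatase, DNMBP (0.95), a scaffold protein of dynamin, SLC38A7 (0.93), an amino acid carrier, SLC23A2 (0.93), a vitamin C transporter, and SLC41A1 (0.91), a magnesium transporter. Their log2 fold changes between the genotypes were -0.05 ± 0.13, 0.09 ± 0.10, 0.26 ± 0.14, 0.21 ± 0.20 and 0.04 ± 0.11. Genes measured in the same 8 libraries share each library's depth and tissue composition, which differed between libraries.

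PARP8, an ADP-ribosyltransferase, lies near EMB on chromosome 16. It was 97.0 ± 9.84 CPM in knockout and 94.6 ± 3.77 CPM in wild-type piglets (SD, n = 4 each), with overlapping groups (log2 fold change 0.04 ± 0.08, edgeR adjusted p = 0.874).

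The wider pathway was read through 6 lists with 97 tested genes. Over all genes edgeR called 0 of them, limma with sample quality weights 0 and DESeq2 1, and 13 (13.4%) had an unadjusted edgeR p under 0.05, 6 with a positive and 7 with a negative log2 fold change, a share near the 11.2% of all tested genes. The groups did not overlap in 3 of the 97 with the knockout higher and 1 with it lower, against 2.45% and 3.36% of all tested genes, and DESeq2 called 1.31% of all genes. The median over the lists was 0.06, against 0.01 over all genes.

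Glycolysis, which makes the pyruvate that lactate dehydrogenase reduces, had 9 of 18 genes with a positive log2 fold change and a median of -0.0006. The smallest p values were those of the enolases. On the log2 scale the muscle form ENO3 differed by -0.64 ± 0.25, the neuronal form ENO2 by 0.52 ± 0.22 and the ubiquitous form ENO1 by 0.21 ± 0.17 (edgeR adjusted p = 0.418, 0.436 and 0.607). Of the 11 listed glucose transporters 9 were tested, SLC2A1 and SLC2A2 not being among them, and 5 of the 9 were positive with a median of 0.05. SLC2A3, the high-affinity neuronal glucose transporter, named by position, was 37.1, 76.8, 61.1 and 49.8 CPM in knockout piglets 6, 18, 20 and 21, and 31.2, 33.2, 28.1 and 34.9 CPM in wild-type piglets 5, 9, 12 and 23. Its groups did not overlap (log2 fold change 0.82 ± 0.20, edgeR adjusted p = 0.334), and it was the gene of the lists that DESeq2 called. SLC5A1 and SLC5A2, sodium-coupled glucose transporters, had -0.62 ± 0.25 and -1.12 ± 0.56 (edgeR adjusted p = 0.424 and 0.466).

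Other carriers of the monocarboxylate family were positive in 6 of 11 genes with a median of 0.06, and none had an unadjusted p under 0.05. The log2 fold change was -0.40 ± 0.19 for SLC16A13, 0.32 ± 0.18 for SLC16A10, which carries aromatic amino acids, and 0.40 ± 0.25 for SLC16A6 (edgeR adjusted p = 0.461, 0.505 and 0.535). SLC16A11, the most abundant of this list per length, had 0.06 ± 0.14 (edgeR adjusted p = 0.867). Genes for the fate of pyruvate were positive in 10 of 16, with a median of 0.05. DLAT, the acetyltransferase subunit of pyruvate dehydrogenase, was 55.3 ± 1.13 CPM in knockout and 64.1 ± 4.34 CPM in wild-type piglets (SD, n = 4 each), with groups that did not overlap (-0.21 ± 0.07, edgeR adjusted p = 0.401). PDK1, a kinase that inhibits pyruvate dehydrogenase, had 0.24 ± 0.10 and PC, pyruvate carboxylase, -0.24 ± 0.10 (edgeR adjusted p = 0.419 and 0.437).

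The hypoxia list holds oxygen sensors and regulators beside genes that answer to low oxygen, a class to which LDHA belongs. Its genes were positive in 18 of 22 with a median of 0.23, against 0.01 over all genes, and none passed the test. KDM3A, a histone demethylase, was 94.3 ± 8.55 CPM in knockout and 75.1 ± 8.70 CPM in wild-type piglets (SD, n = 4 each; log2 fold change 0.33 ± 0.10, edgeR adjusted p = 0.378). CA12, a carbonic anhydrase, had 0.76 ± 0.28 and BNIP3L, a receptor for the removal of mitochondria, 0.25 ± 0.11 (edgeR adjusted p = 0.409 and 0.435). The groups did not overlap in KDM3A and CA12. LDHA was compared with the 40 tested glycolysis and hypoxia genes after its values were seen. The gene with the smallest p was VEGFA, the vascular growth factor, with a Pearson r of 0.88 and a Spearman rho of 0.88 over 8 libraries (exact permutation p = 0.00278 and 0.00724, adjusted 0.111 and 0.145), and r was 0.82 without wild-type piglets 12 and 23. None of the 40 had an adjusted p under 0.05.

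Partners of the basigin family were positive in 13 of 21 genes with a median of 0.05. The cyclophilins PPIB and PPIA, extracellular ligands of basigin, had log2 fold changes of -0.41 ± 0.16 and -0.27 ± 0.11, and ITGA3, an integrin subunit, of -0.28 ± 0.12 (edgeR adjusted p = 0.419, 0.425 and 0.436). PPIA was named by position and has many near-identical copies, so its value is uncertain. MMP9, a protease that basigin induces, was named after its values were seen. Knockout piglet 18 had 333 CPM, the other knockout piglets had 0.524 to 4.10 CPM and the wild-type piglets 0.967 to 33.3 CPM.

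Summed markers of 15 cell types were set beside the members. Those of globose basal cells and precursors, with 8 of 9 genes matched, did not overlap between the genotypes, at 705 to 730 CPM in knockout and 681 to 703 CPM in wild-type piglets. The gap was narrow, between 704.98 CPM in knockout piglet 18 and 702.90 CPM in wild-type piglet 5. Among single tested genes, 5.81% had groups that did not overlap, a share that does not carry over to a sum singled out from 15 lists. The part of these markers in the EMB difference was not tested. The other 14 lists overlapped. Sustentacular markers (9 of 13 matched) summed to 2579 to 3996 CPM in knockout and 3227 to 3575 CPM in wild-type piglets, and leukocyte markers (14 of 14) to 48.2 to 275 CPM and 55.2 to 97.9 CPM, with the highest value in knockout piglet 18. EMB in that piglet, at 44.5 CPM, was inside the range of the other knockout piglets.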

How the data were processed

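The deposited table holds whole-number read counts of each gene in 8 libraries beside its summed exon length in bases, in the featureCounts layout per the file headers. The submitters' processing notes list STAR 2.4.0, featureCounts, Subread 1.5.0-p3, HTSeq, FastQC and DESeq2 without saying what each did, and the genome build and strand setting are not given in the sources used here. The 5988 rows that name no pig gene took 94 to 727 counts per library and were left out. Symbols came from a gene table (14857 rows) or, where at least 50% of both spans overlapped, from RefSeq positions on Sscrofa11.1. A member row had the symbol or covered at least 50% of the RefSeq gene. Each library is labelled as a piglet of its own, so p-values refer to variation among animals, whose litters are not given.

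Counts were fitted with edgeR 4.0.16 (quasi-likelihood test, TMM, default filter, genotype as the factor, R 4.3.3), and p-values were adjusted by Benjamini-Hochberg over 17175 genes at 0.05. The standard error of a log2 fold change is its size over the square root of the F statistic. CPM and RPKM are TMM-scaled, and log2 CPM used a prior count of 2. DESeq2 1.42.0 and limma 3.58.1 were alternatives, and the pipeline was tested on simulated data. Single values and correlations used exact permutation tests, two-sided. The named genes were CFTR, the members, up to 3 genes per list with the smallest p, the 5 genes most like EMB and its neighbours, of which 1 result is not reported here. The members and lists were chosen with earlier results of these data known. VEGFA, EIF1AY, KDM5D, SLC2A1 and SLC2A2, and the genes that overlap NPTN and SLC16A3, are named outside this rule. MMP9 and SLC16A11 were chosen after their values were seen.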

Additional observations from a re-analysis of the deposited data

Results flagged for a closer look

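LDHB on chromosome 5 was 359 CPM in wild-type piglet 12, against 425 to 437 CPM in the other wild-type piglets, a gap of 0.846 of the group's whole range, which marks a sample far from the rest. It was the only such value in 24 groups of 4 examined over the members and their ratios. Chance gives such a value in about 1 of 20 groups, so 1 in 24 is near that rate. The same piglet had the lowest BSG, LDHA, SLC16A1 and SLC16A3 values of the wild-type group, at 165, 85.7, 12.9 and 10.8 CPM. Its EMB and NPTN values were the highest of that group, at 32.1 and 391 CPM.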

How the results depend on the processing

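The EMB log2 fold change lay between 0.56 and 0.70 over 17 alternatives, and no member other than EMB was called in any of them. The number of members called, 0 in edgeR, was 1 with DESeq2, namely EMB. Because EMB had been chosen for this contrast from these counts, neither that call nor the range of its log2 fold change is a test of it. The signs of BSG, NPTN, SLC16A1, SLC16A7 and both LDHB rows were the same in all 18 fits, while SLC16A3 was negative in 6 and LDHA in 8. The count of genes called in the whole table, 1 in edgeR, was 219 with DESeq2, 11 with limma and sample quality weights, 2 without knockout piglet 18 and wild-type piglet 5 together, 0 in the 6 libraries with no read of EIF1AY or KDM5D (an alternative chosen after seeing the data) and 0 to 16 when each library was left out in turn (0 without knockout piglet 6 or 20, 16 without wild-type piglet 12). The cause was not tested. Of the 21 correlations among members, 1 had an adjusted p under 0.05 with all libraries and 0 without the 2 farthest, where fewer samples remain. The log2 ratio of LDHA to LDHB differed by 0.02 to 0.52 when each library was left out, the log2 summed carrier level by -0.12 to 0.24, and the log2 ratio of BSG to NPTN by -0.34 to -0.17. The added alternatives gave 0.21 for the first with both LDHB rows summed and 0.03 for the second with SLC16A1 set per exon length inside the RefSeq gene. No paired analysis was possible because the groups share no piglet numbers. The biological coefficient of variation was 26.5%, which with 4 animals a group limits the differences that can be called.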
